A study of Mus musculus with 8 samples.

Results

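The enzymes that turn squalene epoxide into cholesterol were followed at the transcript level in newborn mouse liver with and without Mfp2. They are taken here in pathway order as Lss, Cyp51, Tm7sf2, Msmo1, Nsdhl, Hsd17b7, Ebp, Sc5d and Dhcr7, and every probe set that the array annotation pairs with exactly 1 of these symbols was used. That gave 19 probe sets for 9 genes, out of 45037 probe sets and 18193 genes tested. Livers of 4 Mfp2 -/- mice (KO 1 to KO 4) and 4 wild type mice (WT 1 to WT 4), all aged 2 days, were each measured on 1 Affymetrix expression array. Mfp2 is an enzyme of peroxisomes that acts in the chain-shortening of bile acid precursors and of fatty acids that mitochondria cannot handle. The labels do not state how the allele was made, the strain, the sex or the litters of the mice.

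Lanosterol is the first sterol of the pathway, and the enzymes after it strip methyl groups from its ring system and move or remove double bonds until cholesterol is left. Most of them sit in the endoplasmic reticulum, and their genes are known targets of SREBP2, a membrane-bound transcription factor that is released when sterols in that membrane are low. The liver makes much of the cholesterol of the body and also turns it into bile acids. In humans, inherited loss of single enzymes of this stretch causes malformation syndromes, such as Smith-Lemli-Opitz syndrome for DHCR7, CHILD syndrome for NSDHL and an X-linked chondrodysplasia for EBP.

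Because the members share a regulator, the sequence just before their start sites is shown for a pair of genes with 1 probe set that rose (Cyp51 and Msmo1, each at its brightest) and a pair with no probe set past the threshold (Tm7sf2 and Ebp). Each is the 250 bases before the annotated start in RefSeq, assembly GRCm38.p6, read 5′ to 3′ on the gene's strand. Capitals mark CCAAT on either strand (written ATTGG on the other), the letters bound by NF-Y, a factor known to act together with SREBP2, and in Cyp51 also TCACCTCA.
Cyp51, chr5:4104698-4104947, - strand: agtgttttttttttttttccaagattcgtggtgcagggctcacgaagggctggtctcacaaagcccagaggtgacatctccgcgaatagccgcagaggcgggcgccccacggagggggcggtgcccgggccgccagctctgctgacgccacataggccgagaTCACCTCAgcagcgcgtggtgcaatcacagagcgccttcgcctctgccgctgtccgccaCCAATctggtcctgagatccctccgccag
Msmo1, chr8:64733579-64733828, - strand: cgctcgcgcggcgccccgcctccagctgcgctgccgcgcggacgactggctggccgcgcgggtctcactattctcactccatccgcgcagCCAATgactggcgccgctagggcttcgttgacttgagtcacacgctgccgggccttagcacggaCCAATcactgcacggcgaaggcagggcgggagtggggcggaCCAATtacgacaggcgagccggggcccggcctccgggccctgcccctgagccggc
Tm7sf2, chr19:6067851-6068100, - strand: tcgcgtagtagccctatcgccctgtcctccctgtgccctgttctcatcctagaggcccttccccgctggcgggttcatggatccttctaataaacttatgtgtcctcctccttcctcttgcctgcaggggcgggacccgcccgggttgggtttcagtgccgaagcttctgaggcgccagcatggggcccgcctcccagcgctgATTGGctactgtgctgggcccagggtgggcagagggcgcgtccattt
Ebp, chrX:8193513-8193762, - strand: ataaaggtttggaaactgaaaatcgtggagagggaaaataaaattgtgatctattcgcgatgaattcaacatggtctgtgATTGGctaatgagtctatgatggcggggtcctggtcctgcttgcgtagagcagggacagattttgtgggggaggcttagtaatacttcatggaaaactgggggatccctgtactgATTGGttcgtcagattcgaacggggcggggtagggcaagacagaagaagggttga
All 9 members were found in the promoter table, with 11 windows because Dhcr7 has 3 annotated starts. CCAAT, searched on both strands, was present for 9 of the 9 members, in 9 of the 11 windows, and 33.8% of all 32851 windows of the same length held it. GGGCGG, the letters of the Sp1 site, was present for 9 of the 9 members too, in 10 of the 11 windows, against 32.7% of all windows. The sterol response element was searched as TCACNCCAC and as its core CACNCCAC, which are in 1.05% and 5.29% of all windows, the core counting also the longer form. Neither was found in the 11 windows. TCACCTCA, a form known from the Cyp51 promoter and searched after these sequences were seen, was found in Cyp51, 88 bases before the start, and in Hsd17b7, 117 bases before it, against 0.947% of all windows. These matches describe letters in a window and are not evidence of binding. The CCAAT and GGGCGG letters were shared by members that rose and members that did not pass.

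Each array matched its label at the targeted gene. Hsd17b4, which encodes Mfp2, lay at 4.29, 3.76, 3.25 and 4.06 in KO 1 to KO 4, against 8.18, 8.71, 8.97 and 8.15 in WT 1 to WT 4, on the log2 scale that is used for all levels here. Correlations between arrays over all probe sets ran from 0.982 to 0.993 within groups and from 0.975 to 0.989 across them. Array medians were 3.68 to 3.73, and a probe set below them is called dim here because it is not shown to be above background. Xist, transcribed from the inactive X, was 8.59 in KO 1, 9.28 in KO 2 and 8.67 in WT 3, and 2.83 to 4.32 in the other 5 livers, with the mean of Y-linked genes the other way round. The differences between groups of single genes are given as KO minus WT on the log2 scale with the standard error (SE) of the limma fit, and a probe set was called past the threshold at an adjusted p under 0.05 over all 45037 probe sets.

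Transcripts of 6 of the 9 enzymes rose in the knockout at 1 or more probe sets. Of the 19 member probe sets 7 rose and 0 fell, where 0.198% of all probe sets rose and 0.762% changed in either direction. The 6 were Lss, Cyp51, Msmo1, Nsdhl, Hsd17b7 and Dhcr7, while Tm7sf2, Ebp and Sc5d had no probe set past the threshold. In simulated data the fit found 0% of changes of 0.5 on the log2 scale, so not passing does not show an unchanged transcript. In 11 of the 19 probe sets all 4 KO values lay above all 4 WT values, as they did in 3.09% of all probe sets. The mean was higher in the knockout at 19 of 19 probe sets, a count that was 18 after quantile normalization of the values again and 17 after median centring of each array, and 14 in replicates 3 and 4 alone. Over all probe sets 54.1% had a higher mean in the knockout. With the probe set of the highest mean standing for each gene, 5 of 9 members rose, against 0.308% of all genes, and the groups did not overlap at 6 of 9, against 3.59% of all genes with all KO values above. The median difference of the 9 was 1.19, against 0.01 over all genes.

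**Figure D1:**
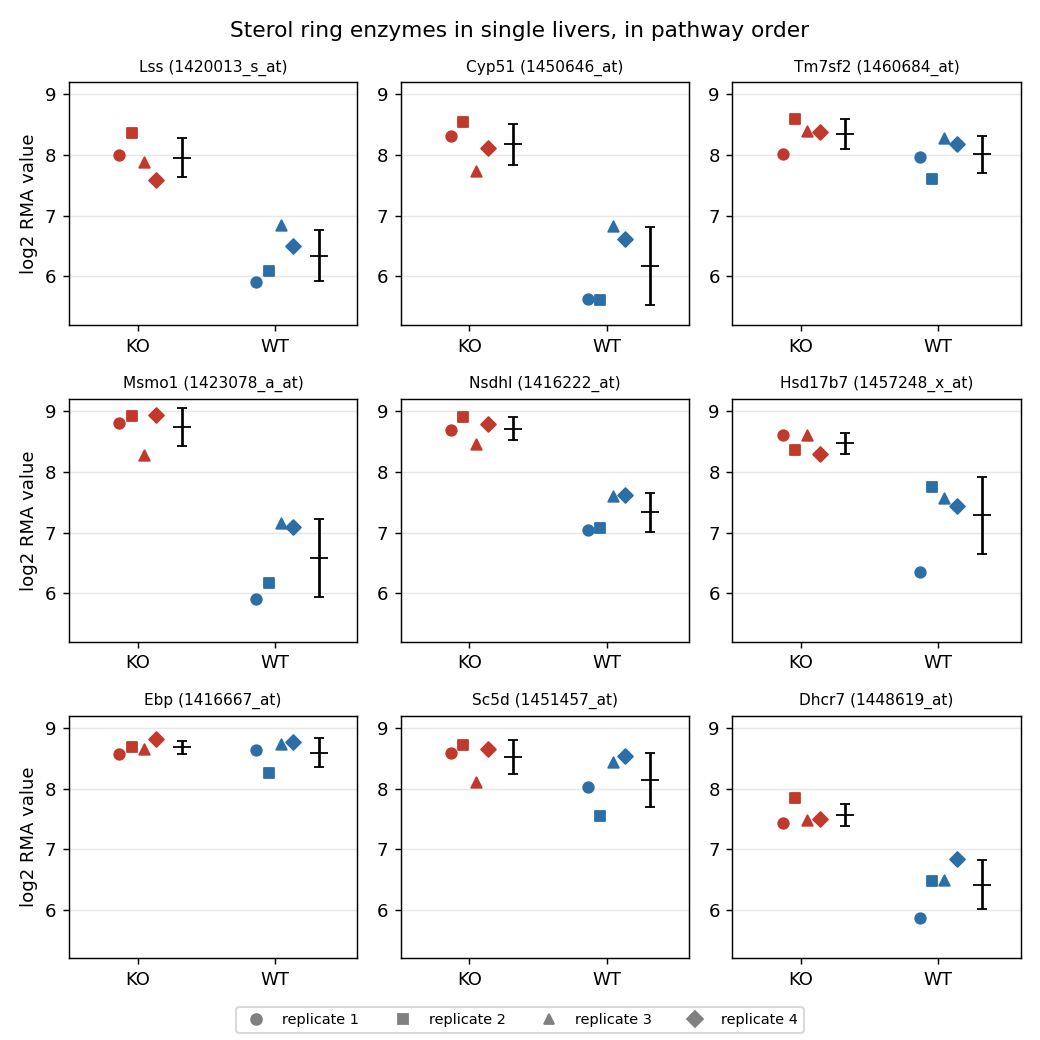
Log2 RMA value (vertical axis) of the highest-mean probe set of each member in every liver, KO left and WT right in each panel, with a marker per replicate number and the group mean with its SD in black. In Lss, Cyp51, Msmo1, Nsdhl, Hsd17b7 and Dhcr7 the KO points lie above all WT points, and in Tm7sf2, Ebp and Sc5d the groups overlap.

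Lss, the cyclase that folds squalene epoxide into lanosterol, opens the stretch. Its brightest probe set, 1420013_s_at, read 8.0, 8.36, 7.89 and 7.58 in KO 1 to KO 4, against 5.91, 6.09, 6.85 and 6.51 in WT 1 to WT 4. The lowest knockout liver was 0.74 above the highest wild type liver. The difference was 1.62 ± 0.22 (SE), 3.07-fold with a 95% interval from 2.19 to 4.32, at a limma adjusted p of 0.0255. The second probe set, 1426913_at, read 7.61, 7.11, 6.25 and 6.76 in knockout, against 4.32, 4.98, 4.75 and 4.39 in wild type livers. It gave the largest difference of the 19, 2.32 ± 0.26 at a limma adjusted p of 0.0204, and stood at rank 10 of all 45037 probe sets by p. The third, 1420014_at, lay near the array medians, with means of 4.27 in knockout and 3.88 in wild type livers, and its difference of 0.39 ± 0.13 did not pass (limma adjusted p 0.265). The ending _s_at marks a probe set whose probes can match transcripts of more than 1 gene.

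Cyp51, the cytochrome P450 that takes the first methyl group off lanosterol, rose at its brightest probe set. 1450646_at read 8.31, 8.54, 7.74 and 8.12 in KO 1 to KO 4, against 5.63, 5.62, 6.82 and 6.61 in WT 1 to WT 4. The groups were apart by 0.92, and the wild type livers themselves spanned 1.21, with WT 1 and WT 2 low. The difference was 2.01 ± 0.29 (SE), 4.03-fold with a 95% interval from 2.57 to 6.33, at a limma adjusted p of 0.0278. At 1422533_at the groups did not overlap either, at 6.01 to 6.64 in knockout and 3.78 to 5.31 in wild type livers, but the difference of 1.57 ± 0.31 missed the threshold (limma adjusted p 0.0584). The dim probe set 1422534_at, at means of 2.92 in knockout and 2.38 in wild type livers, differed by 0.54 ± 0.18 with overlapping groups.

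Tm7sf2 reduces the double bond that Cyp51 leaves behind, and did not pass. Its single probe set read 8.01, 8.59, 8.41 and 8.39 in KO 1 to KO 4, against 7.97, 7.61, 8.28 and 8.19 in WT 1 to WT 4. KO 1 lay within the wild type range, and WT 2 was the lowest liver. The difference was 0.34 ± 0.17 (SE), with a 95% interval from -0.04 to 0.71 and a limma adjusted p of 0.492. Lbr, a protein of the inner nuclear membrane that can carry out the same reduction, had a lower mean in the knockout and did not pass. It read 9.52, 9.21, 8.92 and 9.19 in knockout, against 9.77, 9.70, 9.78 and 9.62 in wild type livers, with no overlap. Its difference was -0.51 ± 0.13, at a limma adjusted p of 0.116.

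The 3 enzymes that remove the methyl groups next to the sterol's hydroxyl group each rose at 1 probe set. Msmo1, the oxidase that starts this removal, showed the largest difference among the highest-mean probe sets. 1423078_a_at read 8.81, 8.93, 8.28 and 8.95 in KO 1 to KO 4, against 5.90, 6.18, 7.16 and 7.10 in WT 1 to WT 4. A gap of 1.12 parted the groups. The difference was 2.16 ± 0.29 (SE), 4.46-fold with a 95% interval from 2.86 to 6.97, at a limma adjusted p of 0.0250. The other Msmo1 probe set, 1459627_at, was the dimmest of the 19, at means of 1.92 in each group, and a level that low says nothing of the transcript.

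Nsdhl, the dehydrogenase that takes the oxidised methyl group off as carbon dioxide, has a single probe set. It read 8.70, 8.90, 8.46 and 8.79 in KO 1 to KO 4, against 7.05, 7.07, 7.60 and 7.62 in WT 1 to WT 4. The difference was 1.38 ± 0.16 (SE), 2.60-fold with a 95% interval from 2.02 to 3.35, at a limma adjusted p of 0.0204 and rank 14 of all probe sets by p. The gene lies on the X chromosome, and among the livers high in Xist KO 1 and KO 2 stood at 8.70 and 8.90 and WT 3 at 7.60. With Y-linked expression as a covariate the difference was 1.34 ± 0.16 (limma adjusted p 0.0155).

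Hsd17b7 restores the hydroxyl group after each round. Its probe set 1448865_at read 7.13, 7.22, 7.44 and 7.04 in KO 1 to KO 4, against 5.62, 6.19, 6.34 and 6.37 in WT 1 to WT 4, and rose by 1.08 ± 0.17 (SE), 2.11-fold, at a limma adjusted p of 0.0352. The brightest, 1457248_x_at, read 8.62, 8.35, 8.61 and 8.30 in knockout, against 6.35, 7.76, 7.57 and 7.45 in wild type livers. There WT 1 alone lay below all other livers by a wide margin, and the difference of 1.19 ± 0.27 missed the threshold (limma adjusted p 0.0846). The ending _x_at marks probes that may cross-hybridise. 1417871_at differed by 1.03 ± 0.24 (limma adjusted p 0.0931), also with no overlap, and the dim 1440057_at by 0.16 ± 0.14.

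**Figure D2:**
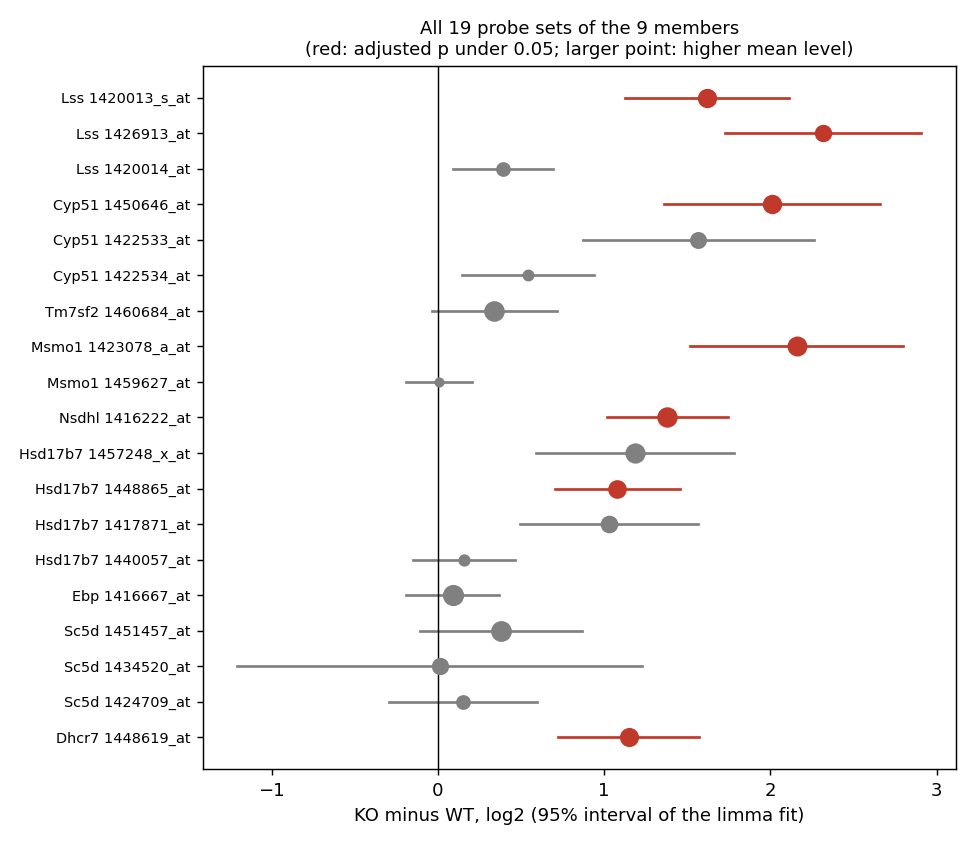
KO minus WT difference on the log2 scale (horizontal axis) of all 19 member probe sets in pathway order, with the 95% interval of the limma fit. Points are larger where the mean level over 8 livers is higher, and red marks the 7 probe sets with an adjusted p under 0.05, which belong to Lss, Cyp51, Msmo1, Nsdhl, Hsd17b7 and Dhcr7.

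Of the last 3 members, which rearrange the double bonds of the ring, the first 2 did not pass. Ebp, the isomerase that shifts the ring's double bond, read 8.57, 8.69, 8.65 and 8.82 in KO 1 to KO 4, against 8.63, 8.26, 8.73 and 8.77 in WT 1 to WT 4. The groups overlapped and WT 2 alone was low. The difference was 0.09 ± 0.13 (SE), with a 95% interval from -0.19 to 0.37 and a limma adjusted p of 0.863, so a change of more than 1.29-fold upward lay outside the interval. Ebp is X-linked like Nsdhl, and its difference was 0.08 with the Y-linked covariate.

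Sc5d, the desaturase that adds the next double bond, was read by 3 probe sets, and 0 of them passed. 1451457_at read 8.59, 8.72, 8.11 and 8.65 in KO 1 to KO 4, against 8.03, 7.55, 8.43 and 8.54 in WT 1 to WT 4, a difference of 0.38 ± 0.22 (SE, limma adjusted p 0.573). 1434520_at read 6.40, 6.57, 3.68 and 6.10 in knockout, against 5.27, 5.74, 5.71 and 5.99 in wild type livers, a difference of 0.01 ± 0.55. The dimmer 1424709_at differed by 0.15 ± 0.20 (limma adjusted p 0.848). KO 3 was the lowest knockout liver at all 3 Sc5d probe sets. Without KO 3 the differences were 0.52 at 1451457_at, 0.68 at 1434520_at and 0.37 at 1424709_at, with limma adjusted p between 0.206 and 0.463.

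Dhcr7, which reduces 7-dehydrocholesterol to cholesterol, rose at its single probe set. It read 7.43, 7.84, 7.49 and 7.49 in KO 1 to KO 4, against 5.87, 6.47, 6.49 and 6.84 in WT 1 to WT 4. The knockout livers lay at least 0.60 above the wild type livers. The difference was 1.15 ± 0.19 (SE), 2.22-fold with a 95% interval from 1.65 to 2.97, at a limma adjusted p of 0.0383.

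The differences were uneven along the pathway, and their unevenness was tested between neighbours. For each of the 8 pairs of neighbouring members the log2 value of the earlier enzyme was taken from that of the later one in each liver, and these values were compared between knockout and wild type livers with a two-sided exact permutation test. At 4 against 4 livers no p below 0.0286 is possible. That value was reached by Tm7sf2 against Cyp51, where the later minus the earlier difference was -1.67 ± 0.29 (SE) on the log2 scale, by Msmo1 against Tm7sf2, at 1.82 ± 0.30, and by Nsdhl against Msmo1, at -0.78 ± 0.18. After Benjamini-Hochberg adjustment over the 8 pairs the exact permutation p was 0.0762 for these 3, so that 0 of the 8 passed 0.05. The smallest difference was Hsd17b7 against Nsdhl, at -0.19 ± 0.33 with an exact permutation p of 0.657. The call depended on the probe sets and on 1 liver. With the mean of all probe sets standing for each gene, dim ones included, 5 of the 8 pairs passed, each at an adjusted exact permutation p of 0.0457. They were Tm7sf2 against Cyp51 at -1.03, Msmo1 against Tm7sf2 at 0.74, Nsdhl against Msmo1, whose sign turned, at 0.30, Ebp against Hsd17b7 at -0.78 and Dhcr7 against Sc5d at 0.97. Without WT 2 the same 5 pairs of the highest-mean probe sets passed at the same adjusted exact permutation p, with Nsdhl against Msmo1 at -0.73. The lowest possible p adjusts to 0.0762 when 3 pairs reach it and to 0.0457 when 5 do. Whether a pair at that exact permutation p passed was therefore set by the number of other pairs there, and not by its own difference. Only changes were set against each other here, since levels of different probe sets are not comparable. Changes can differ between probe sets too, even of a single gene, as at Lss with 1.62, 2.32 and 0.39. Whether the unevenness lies in the genes or in their probe sets was not tested.

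Wild type livers varied more than knockout livers at each of the 9 highest-mean probe sets, by range and by SD. Over all 19 probe sets this held at 13, and at the other 6, among them Lss at 1426913_at (SD 0.57 in knockout and 0.31 in wild type livers) and Sc5d at 1434520_at (1.35 in knockout and 0.30 in wild type livers), knockout livers varied more. WT 1 was the lowest wild type liver at 5 members and WT 2 at the other 4, and WT 3 or WT 4 was the highest at all but Hsd17b7, where WT 2 was. Among knockout livers KO 2 was the highest at 6 of the 9 and KO 3 the lowest at 4. The mean log2 value over the 9 was 8.34, 8.55, 8.18 and 8.34 in KO 1 to KO 4, against 6.81, 6.95, 7.55 and 7.51 in WT 1 to WT 4. Differences were therefore also taken within replicates 1 and 2 and within replicates 3 and 4, a split by number that no label explains. Over the 9 members the median was 1.47 in the first of these sets and 0.95 in the second, which restates the liver values above and is no separate support. Whether the knockout effect differs between these sets was not tested. Within replicates 1 and 2 Xist was 8.59 and 9.28 in the knockout livers and 2.83 and 4.19 in the wild type livers. Genotype and Xist level, and so a difference by sex, cannot be told apart in that set. Sc5d at 1451457_at differed by 0.87 within replicates 1 and 2 and by -0.10 within replicates 3 and 4, and Ebp by 0.19 and -0.01.

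**Figure D3:**
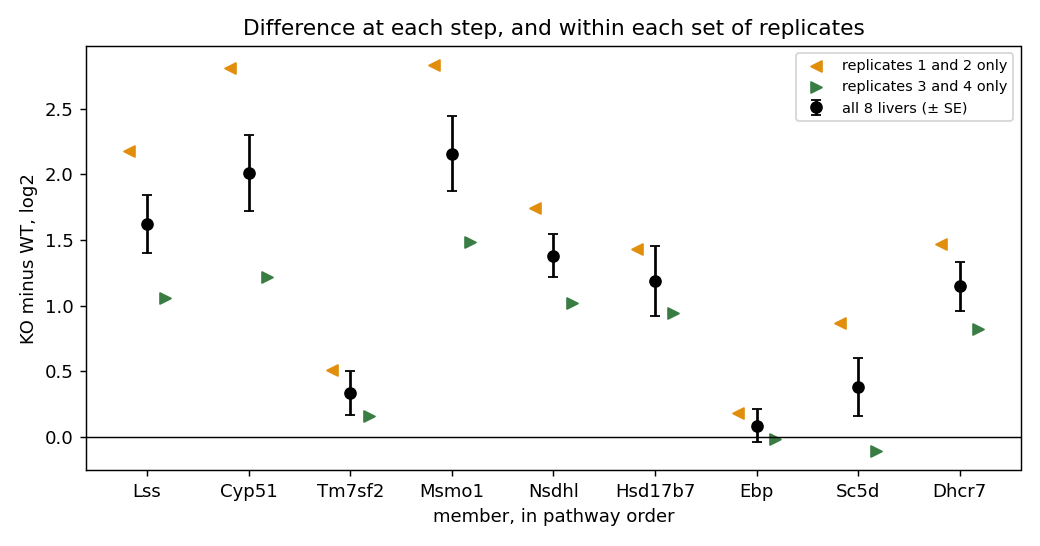
KO minus WT difference on the log2 scale (vertical axis) of the highest-mean probe set of each member in pathway order (horizontal axis), for all 8 livers with its SE (black), for replicates 1 and 2 (orange) and for replicates 3 and 4 (green). Tm7sf2, Ebp and Sc5d are the 3 lowest in every set, with Sc5d at 0.87 in replicates 1 and 2 and -0.10 in replicates 3 and 4.

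The number of members past the threshold depended on single livers. Of the 7 probe sets 0 passed without KO 4 or without WT 4, 2 without WT 3, 3 without KO 3, 4 without KO 1 and 5 without KO 2, and the count was 8 without WT 1 or without WT 2. Over all probe sets the count of 343 moved too, to 9 without WT 4, 13 without KO 4 or without WT 3, 38 without KO 3, 161 without WT 1 and 177 without KO 1. The size of the differences at the 7 probe sets moved less. Over the 8 fits with 1 liver left out, that of Msmo1 at 1423078_a_at ran from 1.93 to 2.35, that of Cyp51 at 1450646_at from 1.83 to 2.23, that of Nsdhl from 1.28 to 1.48 and that of Dhcr7 from 0.96 to 1.29. Among members that had not passed, Tm7sf2 ran from 0.20 to 0.45 and Sc5d at 1451457_at from 0.18 to 0.52. Within replicates 3 and 4, 4 member probe sets passed, against 1.02% of all probe sets. Of these, 3 were among the 7, and the other was Hsd17b7 at 1417871_at, which had not passed with all livers. Within replicates 1 and 2, 2 passed, Cyp51 at 1450646_at and Msmo1 at 1423078_a_at, against 0.00888% of all probe sets. Their differences were 2.81 and 2.83 there, against 1.22 and 1.49 within replicates 3 and 4. Genotype and Xist level ran together within replicates 1 and 2.

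Enzymes before the ring closure were examined by the same fit. Of the 8 measured genes from Hmgcs1 to Sqle, 5 rose and 0 fell, against 1.15% of all genes changed in either direction, with a median difference of 1.16. They were Fdps, by 1.63 ± 0.28 (SE), Sqle, by 1.24 ± 0.20, Fdft1, by 1.19 ± 0.17, Mvk, by 1.00 ± 0.19, and Mvd, by 0.79 ± 0.14, with limma adjusted p between 0.0278 and 0.0499. Sqle makes the squalene epoxide that Lss closes. It read 8.33, 8.56, 7.93 and 8.62 in knockout, against 6.80, 6.83, 7.41 and 7.44 in wild type livers. Of the 8 genes, 0 passed without KO 1, KO 4, WT 3 or WT 4, 1 without KO 2, 3 without KO 3 and 2 without WT 2. Without WT 1, 2 passed, Fdft1 and Idi1, the second of which is not among the 5.

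Among partners of the ring enzymes, 0 passed the threshold. Erg28, whose yeast counterpart is a scaffold for the methyl-removing enzymes, differed by 0.55 ± 0.18 (SE, limma adjusted p 0.234). The electron carriers Cyb5b, Cyb5r3 and Cyb5a differed by 0.56 ± 0.14, 0.07 ± 0.18 and -0.05 ± 0.12, with a limma adjusted p of 0.117 for Cyb5b. Of 7 measured genes of sterol sensing 0 passed. Insig1, which holds SREBP in the endoplasmic reticulum and is itself an SREBP target, read 7.24, 7.24, 6.83 and 7.11 in knockout, against 6.65, 6.35, 6.65 and 6.30 in wild type livers. Its difference was 0.61 ± 0.13 (limma adjusted p 0.0687). It passed with array weights (limma adjusted p 0.0368) and with the Y-linked covariate (0.0485), and in 0 of the other 16 alternatives. Srebf2, which encodes SREBP2, differed by 0.16 ± 0.13 (limma adjusted p 0.721).

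**Figure D4:**
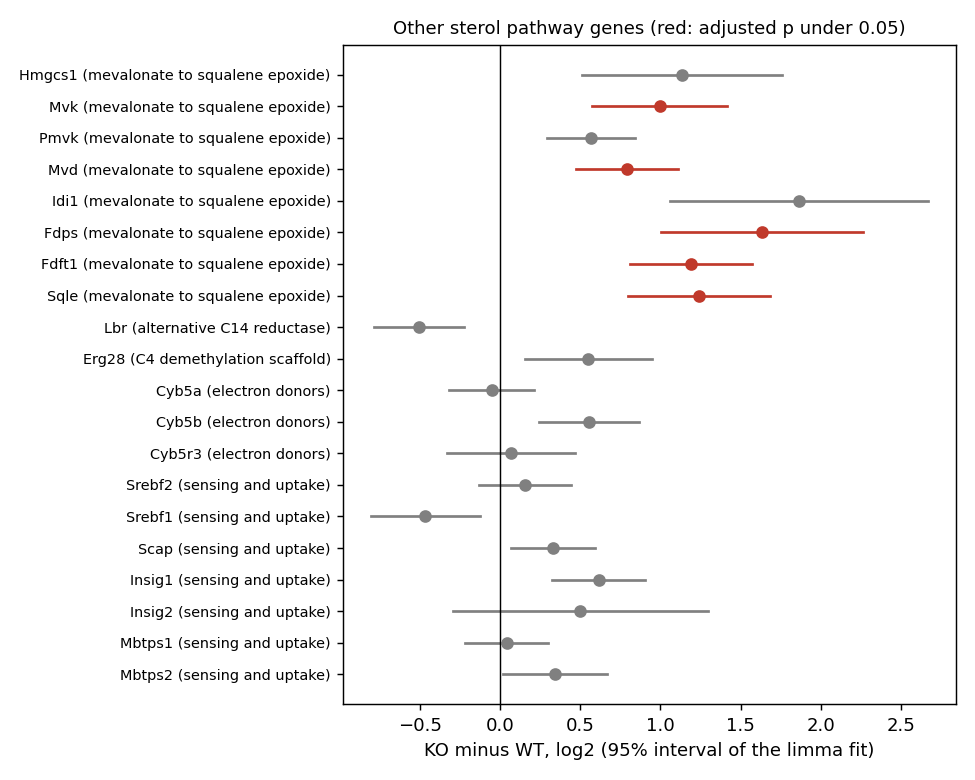
KO minus WT difference on the log2 scale (horizontal axis) of 20 other sterol pathway genes, by role, with the 95% interval of the limma fit. Red marks the 5 genes with an adjusted p under 0.05, all between mevalonate and squalene epoxide. The points of Lbr, Srebf1 and Cyb5a lie left of zero without passing.

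Of 11380 other genes with a mean above the median, those closest to the members' scaled mean came from the same pathway. They were Fdps, Sqle, Idi1 and Hmgcs1, with Pearson correlations of 0.978, 0.973, 0.965 and 0.944 over 8 livers. Simc1, Mertk, Golgb1 and Trim3, none of them on the lists of pathway genes, followed at 0.930, 0.925, 0.919 and 0.916. The points share the split between genotypes, so these values are a description. Of the members themselves, which make up that mean, Cyp51, Msmo1 and Nsdhl lay closest to it, at 0.983, 0.977 and 0.975, and Ebp farthest, at 0.600.

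Among the cell type markers, those past the threshold were all of red cell precursors. Newborn liver still holds such cells, and all 9 measured erythroid markers had lower means in the knockout, with a median difference of -0.83. Of the 9, 3 passed the threshold (Hbb-bh1, Rhag and Ermap), against 1.15% of all genes changed in either direction. The mean of the erythroid list ran from 8.02 to 8.72 in knockout and from 9.15 to 9.38 in wild type livers. Of 8 hepatocyte markers, among them albumin, 0 passed, with a median difference of 0.06. Their means were higher in the knockout at 5 and lower at 3. The list means ran from 12.61 to 12.66 in knockout and from 12.51 to 12.58 in wild type livers, with no overlap. These levels are near the highest value of the table, 13.7. Hnf4a, the least bright of the 8 at a mean of 9.71, differed by 0.42 ± 0.16 (SE, limma adjusted p 0.345). In whole liver fewer cells of a type and less RNA per cell cannot be told apart. The part of cell composition in the member differences was not tested. Of the macrophage, endothelial, stellate, bile duct and B cell precursor lists, with 4 genes each, 0 genes passed, with medians between -0.46 and 0.11. The same held for the 5 neutrophil genes (median -0.24), the 3 megakaryocyte genes (0.15), the 2 fetal hepatocyte genes (-0.08) and the 3 cell cycle genes (-0.52).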

How the data were processed

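Total RNA of 8 livers was measured on 8 Affymetrix arrays; the labels' protocols name Trizol and biotin. The deposited log2 values were made by the authors with RMA, per the submitters' processing notes; version and settings: not given in the sources used here. RMA gives all arrays a shared distribution, so a change in total mRNA cannot be seen. Arrays give no read depth, and their number, 4 against 4, limits the precision.

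Of 45101 probe sets 64 controls were left out. The platform annotation pairs 34945 of the rest with 1 gene and 932 with several, and 9160 are unnamed. Symbols were updated through Entrez identifiers (34741 found), and the probe set with the highest mean stood for its gene. Knockout and wild type livers were compared with limma 3.58.1 in R 4.3.3 (two-sided, no covariate, Benjamini-Hochberg over 45037 probe sets), checked on simulated data. There the fit recovered 0% of changes of 0.5 on the log2 scale, 88.5% of changes of 1 and 100% of changes of 2. Promoter sequences are RefSeq's for GRCm38.p6; no build is stated for the array. Named genes were all members, a list of other pathway genes, cell markers, and the 8 genes closest in pattern; some listed genes are not reported here. Members and lists were chosen with earlier results of these data known. The alternatives, each changing a single choice, were a filter on dim probe sets, quantile normalization, centring, variance model, array weights, blocks, sets of replicates, a Y-linked covariate, each liver left out and, for neighbouring steps, the mean of all probe sets of a gene.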

Additional observations from a re-analysis of the deposited data

Results flagged for a closer look

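In 3 of the 56 groups of 4 livers examined 1 liver stood far from the other 3, by a gap above the critical value of Dixon's ratio of gap to range, and chance gives about 1 such group in 20. At Sc5d probe set 1434520_at KO 3 read 3.68, against 6.10 to 6.57 in the other knockout livers, a gap of 0.839 of the range. At Dhcr7 KO 2 read 7.84, against 7.43 to 7.49 in the other knockout livers, a gap of 0.853 of the range. At Mvk WT 2 read 4.74, against 5.21 to 5.28 in the other wild type livers, a gap of 0.864 of the range.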

How the results depend on the processing

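The 7 member probe sets past the threshold kept their direction under all 18 alternatives tried. Since their groups did not overlap, this could have turned only under quantile normalization, centring or the Y-linked covariate, and is no sign of stability in the others. The count of 7 was 0 with the replicate block, 2 in replicates 1 and 2 only, 4 in replicates 3 and 4 only and 0 to 8 with 1 liver left out. In replicates 3 and 4 only, 3 of the 4 were among the 7. It was 7 to 9 under the other 7 alternatives. Over all probe sets the count of 343 was 15 with the replicate block, 914 with array weights, 527 with the Y-linked covariate, 4 in replicates 1 and 2 only and 9 to 489 with 1 liver left out. For the other pathway genes the count of 5 was 0 with the replicate block, 8 with array weights, 0 in either set of replicates alone and 0 to 3 with 1 liver left out. Fits on fewer livers have less precision by construction; for the rest the cause was not tested. Deviations of livers with the same number correlated at -0.0039 to 0.26, and no label ties the numbers to litters, so they were not taken as pairs. Across genotypes, replicates 1 and 2 correlated negatively with replicates 3 and 4 in each case, at -0.24 to -0.034. Inside either set, correlations across genotypes ran from -0.0039 to 0.26. The main fit has no term for this split, and with it as a block 9 member probe sets passed. Differences that had not passed turned sign for the dim Msmo1 probe set (-0.0055 after quantile normalization, -0.0061 after centring, -0.018 in replicates 3 and 4, -0.020 to 0.060 with 1 liver left out), for Ebp (-0.010 in replicates 3 and 4, -0.025 to 0.15 with 1 left out), for Sc5d at 1434520_at (-0.0030 after centring, -0.034 with array weights, -0.96 in replicates 3 and 4, -0.16 with the Y-linked covariate, -0.28 to 0.68 with 1 left out), and in replicates 3 and 4 for Sc5d at 1451457_at (-0.10) and 1424709_at (-0.22). Of 88 values of neighbouring steps 76 moved by less than the spread between livers. The count of 0 pairs past the threshold was 5 with the mean of all probe sets of a gene and 5 without WT 2 (adjusted exact permutation p 0.0457 each), and 0 with any other liver left out; 2 against 2 livers cannot pass. Nsdhl against Msmo1 turned sign to 0.30 and Cyp51 against Lss to -0.07 with the mean of all probe sets of a gene, Sc5d against Ebp to -0.09 in replicates 3 and 4, and Hsd17b7 against Nsdhl to 0.05 without WT 2.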

Other observations

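After each group's mean was taken out of every gene, the genes that followed the members from liver to liver were mostly outside the sterol pathway. This removes the difference between group means only. Wild type livers varied more at each of the 9 probe sets used, so the spread still differs between the genotypes. Tspan8, a tetraspanin of the cell surface, was closest to the members' scaled mean at a Pearson correlation of 0.968 over 8 livers, and it fell in the knockout by 0.92 ± 0.12 (SE, limma adjusted p 0.0205), the opposite direction to the members. Edem2, a protein of the disposal of misfolded proteins in the endoplasmic reticulum, followed at 0.960, with a difference of 0.13 ± 0.10. Polr3f, Tgm2, Cand2, Zfp9 and Srsf10 lay between 0.919 and 0.923. Idi1, the isomerase of the mevalonate pathway, was the sterol gene among the closest 8, at 0.921. These are the highest of 11380 genes over 8 livers and are given as a description.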
